A study of Mus musculus with 4 samples.

Results

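The 6 members of the lymphocyte antigen 6 (Ly6) family described here are Ly6a, Ly6c1, Ly6c2, Ly6i, Ly6e and Ly6d. They were taken by name, 6 of the 32285 genes in the count matrix, and followed through every cell type and sample of a single-cell RNA-sequencing series on immune cells of mouse melanomas. Live CD45+ cells had been sorted from tumours of YUMM1.7OVA, a melanoma line with mutant Braf and without Cdkn2a that makes ovalbumin, grown in Rag2-/- mice, which have no T or B cells of their own. All mice had received OT-1 T cells, which recognise ovalbumin, on day 7, and the tumours were collected on day 10, 72 h after transfer. There were 4 samples and no replicates. NTT is a tumour line naive to targeted therapy, RTT a line resistant to BRAF inhibition, RTT_ROSA26 the resistant line with a control guide against the Rosa26 locus, and RTT_PTGS12KO the resistant line after knockout of Ptgs1 and Ptgs2, which encode the cyclooxygenases that make prostaglandin precursors. Each line is a clone, and the labels give 1 tumour per condition, whereas the study's legends speak of pooled tumours. The knockout lies in tumour cells, which the sort removed (105 UMIs of 5 melanoma markers in 33368 cells), so it was not checked.

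Ly6 proteins are small, cysteine-rich proteins that a lipid anchor holds on the outer face of the cell membrane. Ly6a is Sca-1, the antigen that marks mouse blood stem cells and that interferon induces on leukocytes. Ly6c2 encodes the Ly6C antigen by which classical monocytes are told from macrophages, and Ly6c1 is its close copy, known from endothelial cells. Ly6e is an interferon-induced protein that affects the entry of viruses into cells, Ly6i is a close relative of Ly6a, and Ly6d marks early B-lineage cells and progenitors of plasmacytoid dendritic cells (DCs). The study sorts inflammatory monocytes by Ly6C and Ly6A protein, its clusters were built from these transcripts among others, and the members were selected on their transcript levels (UMI counts) over these same cell types and samples. The levels by cell type below are therefore a description without a test.

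The 6 genes lie in 1 stretch of chromosome 15 (GRCm38, GENCODE annotation), in the order Ly6d, Ly6e, Ly6i, Ly6a, Ly6c1 and Ly6c2, from position 74762056 to 75111970. Ly6e is on the plus strand and the others are on the minus strand. Ly6a spans 74994877 to 74998031 and Ly6c2 spans 75108158 to 75111970. The coding sequence of Ly6a was 86.3% identical to that of Ly6i, 49.6% to that of Ly6e and 45.7% to that of Ly6d. The closest pair was Ly6c1 and Ly6c2, with 384 of 393 coding bases identical. Coding bases 1 to 300 of both are printed because this is the pair whose reads are hardest to tell apart. The 9 differences, from Ly6c1 to Ly6c2 and counted from 1 at the start codon, were C8G, T10A, A16G, G31T, C36G, A65G, G254A, T327C and G376A, and capitals mark those within the printed bases.
Ly6c1: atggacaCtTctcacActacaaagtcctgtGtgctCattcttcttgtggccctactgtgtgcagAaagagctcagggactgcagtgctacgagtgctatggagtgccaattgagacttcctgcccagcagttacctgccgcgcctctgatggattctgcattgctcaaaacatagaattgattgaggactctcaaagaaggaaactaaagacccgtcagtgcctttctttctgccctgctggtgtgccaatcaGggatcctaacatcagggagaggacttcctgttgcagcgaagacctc
Ly6c2: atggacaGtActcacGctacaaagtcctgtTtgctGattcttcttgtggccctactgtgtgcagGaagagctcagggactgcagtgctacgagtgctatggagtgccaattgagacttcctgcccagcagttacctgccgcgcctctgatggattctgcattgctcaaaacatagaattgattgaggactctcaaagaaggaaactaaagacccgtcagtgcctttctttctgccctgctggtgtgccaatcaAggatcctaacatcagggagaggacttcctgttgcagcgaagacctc
In the last 400 bases of the transcripts Ly6c1-201 and Ly6c2-201, where a 3′ library is read, 25 of 301 windows of 100 bases occurred unchanged in the other gene (8.31%), and over their other protein-coding transcripts the share ran from 0% to 29.6%. No such window of Ly6a, Ly6i, Ly6e or Ly6d occurred in another gene. Reads from shared windows belong to neither Ly6c1 nor Ly6c2 with certainty, so the values of this pair are uncertain to that extent.

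The 250 bases before the start sites of the pair (RefSeq, GRCm38.p6, minus strand; chr15:75048838-75049087 for Ly6c1 and chr15:75111972-75112221 for Ly6c2) were less alike, with 164 identical bases in 284 aligned columns (57.8%). They are printed because the levels of the 2 genes differed widely despite their like coding sequences, and capitals mark bases that differ or face a gap in the alignment.
Ly6c1 upstream: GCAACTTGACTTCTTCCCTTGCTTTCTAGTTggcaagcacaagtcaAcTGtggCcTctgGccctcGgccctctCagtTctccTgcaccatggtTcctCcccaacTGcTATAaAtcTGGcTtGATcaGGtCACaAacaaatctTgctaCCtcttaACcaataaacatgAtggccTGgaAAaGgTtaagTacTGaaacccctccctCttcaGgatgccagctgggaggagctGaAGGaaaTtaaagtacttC
Ly6c2 upstream: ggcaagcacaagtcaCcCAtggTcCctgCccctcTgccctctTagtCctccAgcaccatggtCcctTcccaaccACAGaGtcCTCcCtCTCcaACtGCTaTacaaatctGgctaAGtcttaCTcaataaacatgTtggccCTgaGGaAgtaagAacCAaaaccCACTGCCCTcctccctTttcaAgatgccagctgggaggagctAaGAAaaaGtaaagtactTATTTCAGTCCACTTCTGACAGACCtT
Neither stretch held, on either strand, the letters GAAANNGAA, part of the interferon-stimulated response element, or TTCNNNGAA, the core of STAT-binding sites. Of 27025 upstream stretches of the same length, 7.16% held the first and 7.18% the second. Absence of the letters from this window says nothing of the factors.

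The matrix held whole counts of unique molecular identifiers (UMIs), and a level below is the UMIs of a gene over all UMIs of the cells summed, scaled to counts per 1e+06 UMIs (CPM). The samples held 6836 to 10296 cells and 69332486 to 146829369 UMIs, with a median of 7292.5 UMIs per cell in NTT and 12219 to 13280 in the others. The samples had been pooled and loaded on the chip 3 times, and the range over loads is given as technical spread. In all, 98 cell barcodes occurred in more than 1 load. The deposited cell type names were used. Monocytes are Monocyte_1, Infl_Mono and Monocyte_3 (6619 such cells for NTT, 522 such cells for RTT, 144 such cells for RTT_ROSA26 and 4015 such cells for RTT_PTGS12KO), and macrophages are the tumour-associated (TAM) clusters with Ctsk_Macro, while the cluster named Macro was kept apart. Levels by type are given where a sample held at least 50 cells, and where 4 values follow each other they stand for NTT, RTT, RTT_ROSA26 and RTT_PTGS12KO. Among markers of the names, Plac8, a monocyte gene, was at 3087 CPM in Monocyte_1 and 51.1 in TAM_C1q, and Myofibrobl held 18.5 CPM of Ptprc, the gene of CD45.

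Ly6a was high in nearly all myeloid cells of NTT, and in the resistant tumours its level depended on the cell type. In Monocyte_1 it was 3299 CPM in NTT, against 2929.7 in RTT, 2161 for RTT_ROSA26 and 2805 for RTT_PTGS12KO, a 1.53-fold range. In Infl_Mono, the inflammatory monocytes, it was 3356 CPM in NTT, against 1551 in RTT, 711 for RTT_ROSA26 and 2103 for RTT_PTGS12KO. The tumours thus lay close together in the first cluster and 4.72-fold apart in the second, where the loads of RTT_ROSA26 (381 to 1206 CPM) lay below all loads of the other samples. In TAM_cycling, proliferating macrophages, Ly6a was 2796 CPM in NTT, against 263 in RTT, 63.2 for RTT_ROSA26 and 1148 for RTT_PTGS12KO. This 44.2-fold range was the widest of the 14 cell types measured for Ly6a, though Ctsk_Macro, at 28.9-fold, was not measured in NTT. Its low end in RTT_ROSA26 lay near the Ly6a of Myofibrobl (1.47 against 1.25 UMIs per cell), so the fold is not exact. In TAM_C1q, complement-rich macrophages, it was 90.7 CPM in RTT, against 59.7 for RTT_ROSA26 and 252 for RTT_PTGS12KO, and in TAM_H2Ab1, macrophages rich in class II genes, 2871 CPM in NTT, against 2465 in RTT and 2109 for RTT_PTGS12KO. TAM_H2Ab1 lay near Monocyte_1 and TAM_C1q far below it in every sample measured.

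In other cell types NTT was again the highest for Ly6a and RTT_ROSA26 the lowest where all 4 were measured. In cDC2, conventional DCs, Ly6a was 3509.7 CPM in NTT, against 1546 in RTT, 617 for RTT_ROSA26 and 2692 for RTT_PTGS12KO. In neutrophils it was 2129.6, 361, 297 and 1201 CPM in the same order, with overlapping loads of RTT and RTT_ROSA26. Natural killer (NK) cells had 806 CPM in NTT and 385 in RTT_PTGS12KO, and CD8 T cells had 758 in NTT. By the median over samples, Monocyte_1, TAM_H2Ab1, cDC2, Infl_Mono and Macro came first and TAM_Spp1, Ctsk_Macro, TAM_C1q and Myofibrobl last. Neighbours in this order overlapped over samples, apart from TAM_C1q and Myofibrobl.

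Ly6c2 was highest in monocytes, and unlike Ly6a it differed between tumours in both monocyte clusters. In Infl_Mono it was 3499 CPM in NTT, against 791 in RTT, 1059 for RTT_ROSA26 and 2893 for RTT_PTGS12KO. In Monocyte_1 it was 2229, 539, 934 and 1342 CPM in the same order. RTT was lowest in both clusters, whereas for Ly6a the lowest was RTT_ROSA26. In TAM_cycling Ly6c2 was 902 CPM in NTT, against 26.03 in RTT, 21.8 for RTT_ROSA26 and 139.8 for RTT_PTGS12KO, and in TAM_C1q 15.6 CPM in RTT, against 19.6 for RTT_ROSA26 and 35.5 for RTT_PTGS12KO. Lymphocytes held the transcript too, with 1031 CPM in CD8 T cells of NTT, and 514 in NK cells of NTT against 139 in those of RTT_PTGS12KO. In neutrophils it was 1683, 521, 308 and 827 CPM and in cDC2 1077, 51.2, 31.7 and 266 in the same order. Infl_Mono, Monocyte_1, CD8 T cells and neutrophils led the order and overlapped over samples, and TAM_Spp1 did not overlap TAM_C1q below it.

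Genes of monocyte maturation moved beside Ly6c2 within Infl_Mono, and their part in its level was not tested. Plac8 was 6415 CPM in NTT, against 2217 in RTT, 4344 for RTT_ROSA26 and 7725 for RTT_PTGS12KO. The macrophage genes Apoe, a lipoprotein, and Mrc1, the mannose receptor, were 1089, 17616, 7082 and 1548 and 43.8, 444, 217 and 59.5 CPM in the same order. In this cluster the samples with less Ly6c2 (RTT and RTT_ROSA26) thus held less Plac8 and more of both macrophage genes. Chil3, a gene of early monocytes, was 551, 2115, 2671 and 2339 CPM and so lowest in NTT, where Ly6c2 was highest. Ccr2, the receptor by which monocytes leave the marrow, was 396, 359.6, 711 and 656 CPM. In Monocyte_1, Plac8 was 3868, 1189, 2197 and 2438 and Apoe 1234, 5259, 3599 and 1879 CPM.

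Ly6i was highest in Monocyte_1, with 954 CPM in NTT, against 319 in RTT, 332 for RTT_ROSA26 and 509 for RTT_PTGS12KO. In Infl_Mono it was 644, 166, 48.7 and 339 CPM in the same order, and the RTT_ROSA26 value there rests on 86 cells with loads from 26.9 to 81.03 CPM. RTT_ROSA26 was thus level with RTT in the first cluster and the lowest in the second. In neutrophils Ly6i was 533, 94.3, 51.6 and 298 and in cDC2 308, 36.2, 12.8 and 139 CPM. In TAM_C1q it was 4.99 CPM in RTT, against 5.27 for RTT_ROSA26 and 10.9 for RTT_PTGS12KO. Among macrophages its highest level was 164 CPM, in TAM_cycling of NTT.

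Ly6e was the most even member across monocytes and DCs. In Monocyte_1 it was 1919 CPM in NTT, against 1612 in RTT, 1251 for RTT_ROSA26 and 1528 for RTT_PTGS12KO. In cDC2 it was 1568, 1514, 1247 and 1321 CPM, so the samples lay within 1.53-fold of each other in both types. In Macro it was 2541 CPM in RTT, against 2384 for RTT_ROSA26 and 1907 for RTT_PTGS12KO, and here the knockout tumour was the lowest. Evenness ended in TAM_cycling, with 1578, 455, 265 and 909 CPM, and in Ctsk_Macro, macrophages with the bone-type protease cathepsin K, with 509.8 CPM in RTT, against 190.1 for RTT_ROSA26 and 1770.3 for RTT_PTGS12KO. Macro, TAM_H2Ab1, Infl_Mono, Monocyte_1 and cDC2 led the order, and cDC2 did not overlap the next type, NK cells.

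**Figure D1:**
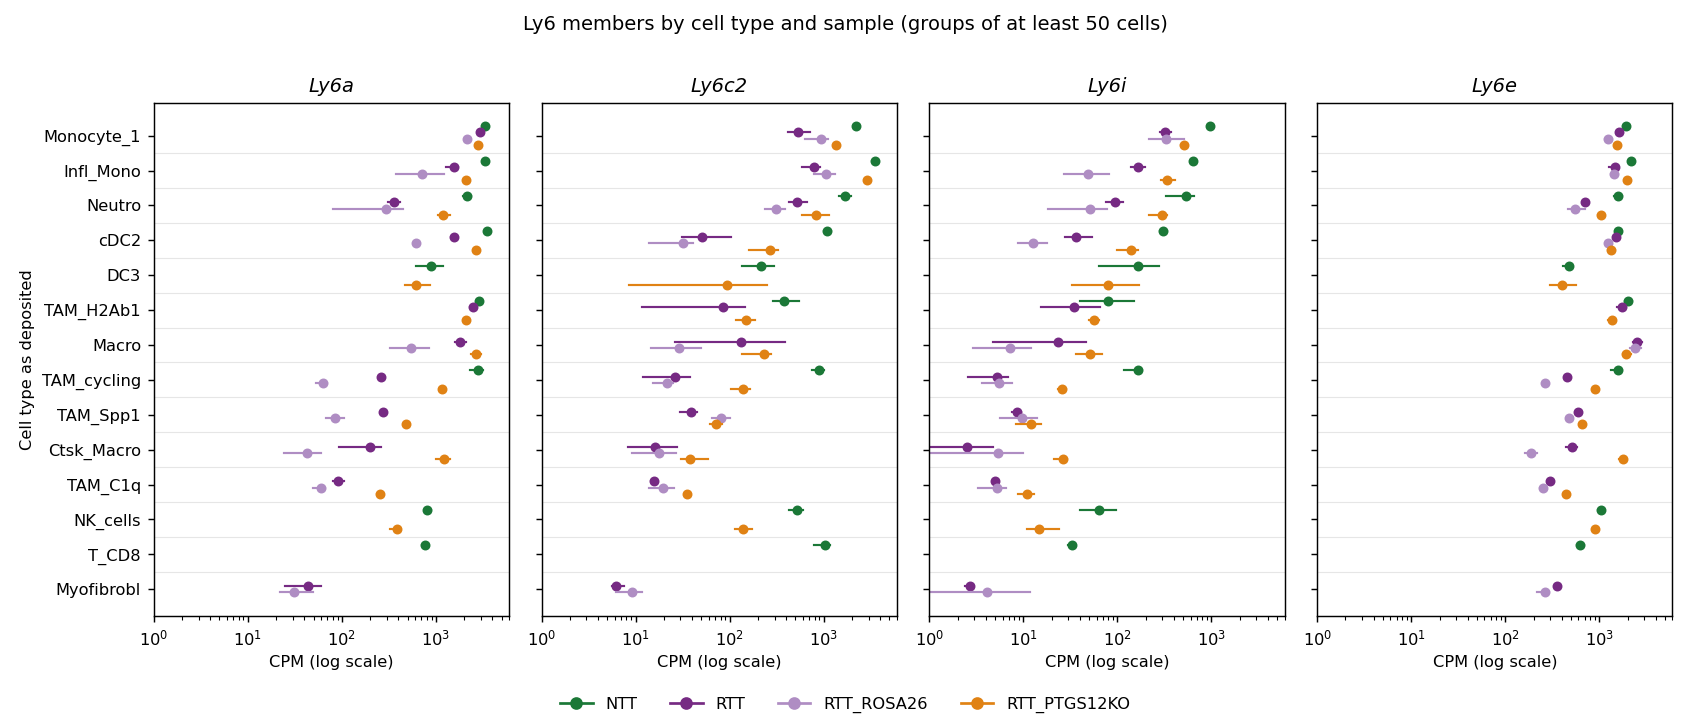
Levels of Ly6a, Ly6c2, Ly6i and Ly6e in CPM on a log axis by deposited cell type, for groups of at least 50 cells; points are samples and lines span the 3 chip loads. Ly6a lies between 2161 and 3299 CPM in Monocyte_1, but between 63.2 and 2796 in TAM_cycling.

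Because all samples shared the loads, RNA freed from cells of 1 sample may be counted in cells of another, and its part in low values was not tested. In Myofibrobl, which should lack Ly6c2 and Ly6i, Ly6c2 was 6.16 CPM in RTT and 9.12 in RTT_ROSA26, and Ly6i 2.74 and 4.15. These cells were large, with a median of 33469 UMIs in RTT against 12915 in macrophages, so UMIs per cell were compared too. Of Ly6c2 Myofibrobl held 0.217 UMIs per cell in RTT and 0.373 in RTT_ROSA26, against 0.226 and 0.301 in TAM_C1q, and 0.302 in cDC2 and 0.246 in Macro of RTT_ROSA26. Macrophages as a class held more Ly6c2 than Myofibrobl, 0.342 in RTT and 0.486 in RTT_ROSA26. Of Ly6i it held 0.0964 and 0.169, against 0.0873 and 0.105 in macrophages and 0.122 in cDC2 of RTT_ROSA26. Apart from the Ly6c2 of macrophages as a class, these levels of Ly6c2 and Ly6i are read as background. Ratios set against them are not a measure of how far the genes differ. Ly6a, which fibroblasts can express, was at 1.54 and 1.25 UMIs per Myofibrobl cell, against 2.80 and 1.09 per macrophage, so the low Ly6a of RTT_ROSA26 macrophages was not told from background.

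Comparing NTT with RTT asks how immune cells differ between tumours naive to and resistant to targeted therapy. With monocytes and macrophages summed, Ly6c2 was 2376 CPM in NTT and 51.3 in RTT, 46.3-fold higher (log2 ratio of CPM + 1 with its 95% counting interval 5.51, 5.47 to 5.55). Ly6i was 43.4-fold (5.37, 5.31 to 5.43), Ly6a 10.6-fold (3.40, 3.39 to 3.42) and Ly6e 4.08-fold (2.03, 2.01 to 2.04) higher. All 4 members with a mean of at least 10 CPM were at least 2-fold higher in NTT, as were 7.41% of 6833 genes, and Ly6c1 and Ly6d lay below 10 CPM. The members were chosen with such results known, so nothing is read from the count. With 1 sample per group there is no test and no replicate spread, and intervals cover counting error only. In cells summed this way a changed mix of types and a changed level per cell cannot be told apart.

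Within classes the log2 ratios were mostly smaller, and in monocytes the members kept their order. In monocytes 2 of 4 members passed 2-fold, beside 1.69% of 6499 genes: Ly6c2 (2.06, 2.00 to 2.11) and Ly6i (1.66, 1.58 to 1.74), while Ly6a was at 0.36 and Ly6e at 0.33. In macrophages 4 of 4 passed, beside 5.1% of 6997 genes, with log2 ratios of 4.58 for Ly6c2, 4.11 for Ly6i, 3.72 for Ly6a and 2.01 for Ly6e, on 308 NTT cells. Of these cells 192 were TAM_H2Ab1, against 63 of 6734 in RTT, so the class is a different mix. Within TAM_H2Ab1 itself Ly6a was 2871 CPM in NTT against 2465 in RTT. Ly6i reached the mean of 10 CPM only through NTT (121 CPM, against 6.02 in RTT), a background value, so it had to differ. Nothing is read from the count or from the place of Ly6i among the members. With the types of NTT weighted as in RTT, Ly6c2 was 13.3-fold, Ly6i 8.97-fold, Ly6a 4.13-fold and Ly6e 2.14-fold higher, values that rest on types with as few as 5 NTT cells. In cDC2 the log2 ratio was 4.37 for Ly6c2, 3.06 for Ly6i and 1.18 for Ly6a, but 0.05 for Ly6e. Of these cDC2, 10 cells of NTT and 1 of RTT were the cells with Ly6d described further on, whose part in these ratios was not tested.

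Comparing RTT_PTGS12KO with RTT_ROSA26 asks how immune cells differ when the tumour cells lack cyclooxygenases. In monocytes and macrophages summed, the log2 ratio was 4.26 for Ly6i, 4.20 for Ly6a, 3.79 for Ly6c2 and 1.83 for Ly6e. All 4 members above 10 CPM were at least 2-fold higher in the knockout, beside 3.57% of 7034 genes. Ly6i reached that mean only through the knockout (169.9 CPM, against 7.92 in the control), and nothing is read from the count. The study chose a gene list that holds Ly6a and Ly6i on this contrast, so their values describe and do not test. With the types of RTT_PTGS12KO weighted as in RTT_ROSA26, Ly6a was still 9.89-fold higher, against 2.88-fold for Ly6i, 2.75-fold for Ly6c2 and 2.70-fold for Ly6e. The RTT_ROSA26 levels in this mix are mostly those of macrophages, where Ly6i is read as background and Ly6a was not told from it. The members are therefore not ranked by these ratios.

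In macrophages Ly6a was 861 CPM in the knockout and 65.5 in the control, 13.1-fold higher (3.70, 3.66 to 3.73), set against a control level not told from background. Ly6c2 was at 1.69, Ly6i at 1.62 and Ly6e at 1.51, so 4 of 4 members passed 2-fold, beside 2.26% of 7086 genes. Ly6i again reached 10 CPM only through the higher sample (21.5 against 6.34 CPM), and nothing is read from the count. By type, Ly6a was at 4.82 in Ctsk_Macro, 4.16 in TAM_cycling, 2.49 in TAM_Spp1 and 2.06 in TAM_C1q. In monocytes Ly6i (1.56) and Ly6a (1.07) passed, beside 1.58% of 6405 genes, and Ly6c2 (0.62) and Ly6e (0.22) did not. The monocyte clusters differed here. In Infl_Mono the log2 ratios and intervals were those of Ly6i (2.77, 2.25 to 3.35), Ly6a (1.56, 1.42 to 1.71) and Ly6c2 (1.45, 1.33 to 1.57). In Monocyte_1, with 54 control cells, they were at 0.61, 0.38 and 0.52.

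**Figure D2:**
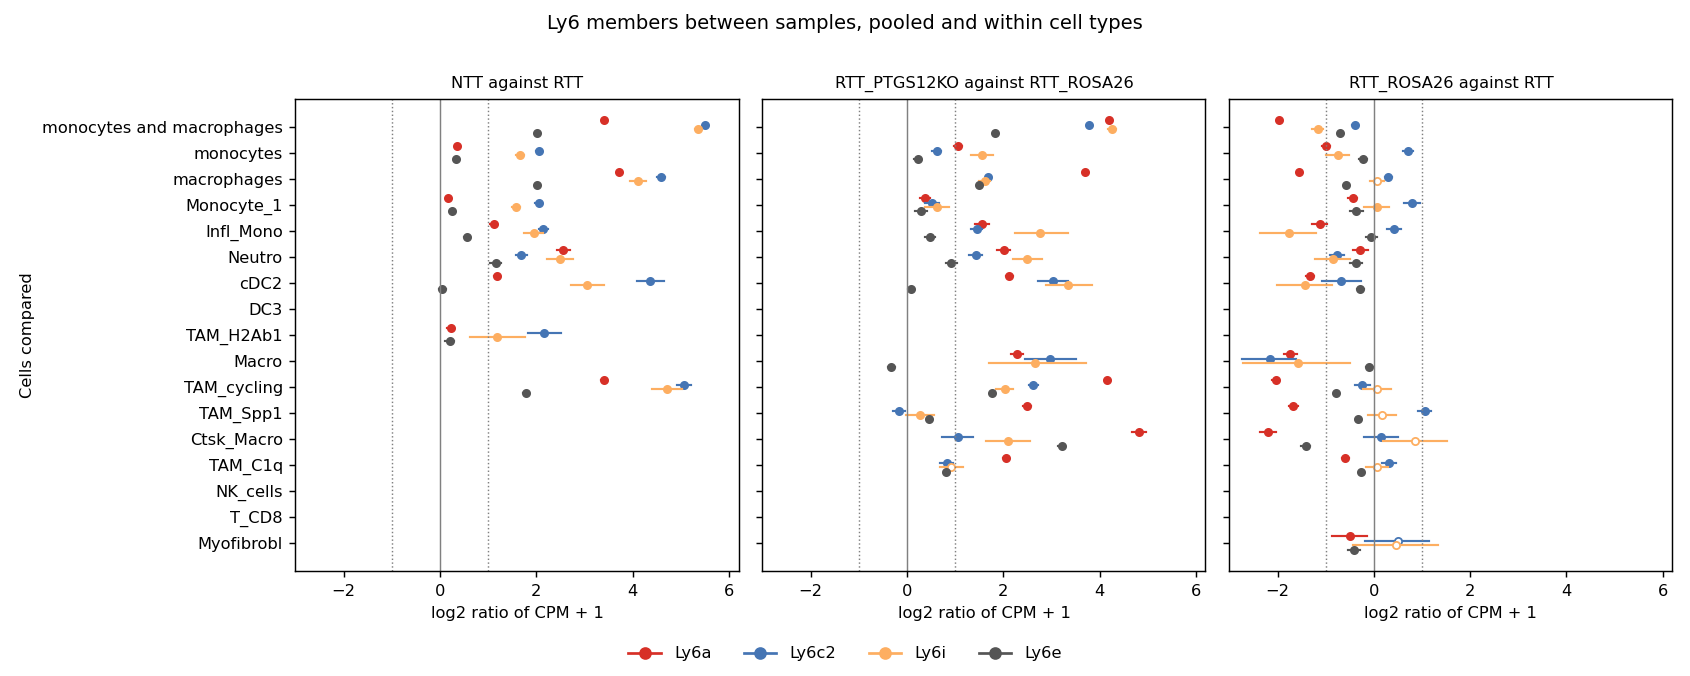
Log2 ratios of CPM + 1 between samples for 4 members, for summed classes and for cell types with at least 50 cells in both samples; bars are 95% counting intervals and open circles had a mean under 10 CPM. Ly6a lies near 0 in Monocyte_1 (0.17 for NTT against RTT, 0.38 for the knockout against its control) and far above 0 in TAM_cycling (3.41 and 4.16).

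RTT_ROSA26 against RTT shows how far resistant tumours with intact cyclooxygenases lay apart. Over monocytes and macrophages Ly6a was 77.8 CPM in RTT_ROSA26 and 307 in RTT (log2 ratio -1.96, -2.00 to -1.93), and Ly6i 7.92 and 19.1 (-1.17, -1.28 to -1.06). Ly6i reached the mean of 10 CPM only through RTT. These 2 of 4 members were at least 2-fold lower, beside 0.865% of 7051 genes, and Ly6c2 was at -0.39 and Ly6e at -0.70. Without load 2 the count was 1 of 4. Under a common mix no member passed 2-fold, with Ly6a at -0.93, Ly6e at -0.41, Ly6i at 0.07 and Ly6c2 at 0.65. In macrophages 1 of 3 members above 10 CPM was 2-fold lower (Ly6a, -1.54), beside 0.68% of genes, and in monocytes 0 of 4, beside 1.58%. By type Ly6a was at -2.20 in Ctsk_Macro, -2.04 in TAM_cycling, -1.67 in TAM_Spp1, -1.32 in cDC2 and -0.59 in TAM_C1q. In RTT_ROSA26, Ctsk_Macro, TAM_Spp1 and TAM_C1q held no more Ly6a per cell than Myofibrobl (0.903, 0.771 and 0.918 against 1.25 UMIs). In TAM_C1q this was so in RTT too (1.32 against 1.54), so its ratio is not read. The control tumour thus had less Ly6a than RTT in cDC2 (5.88 against 18.9 UMIs per cell). In the other macrophage types listed RTT_ROSA26 was lower by an amount not measured, and it is the same sample against which the knockout was compared.

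**Figure D3:**
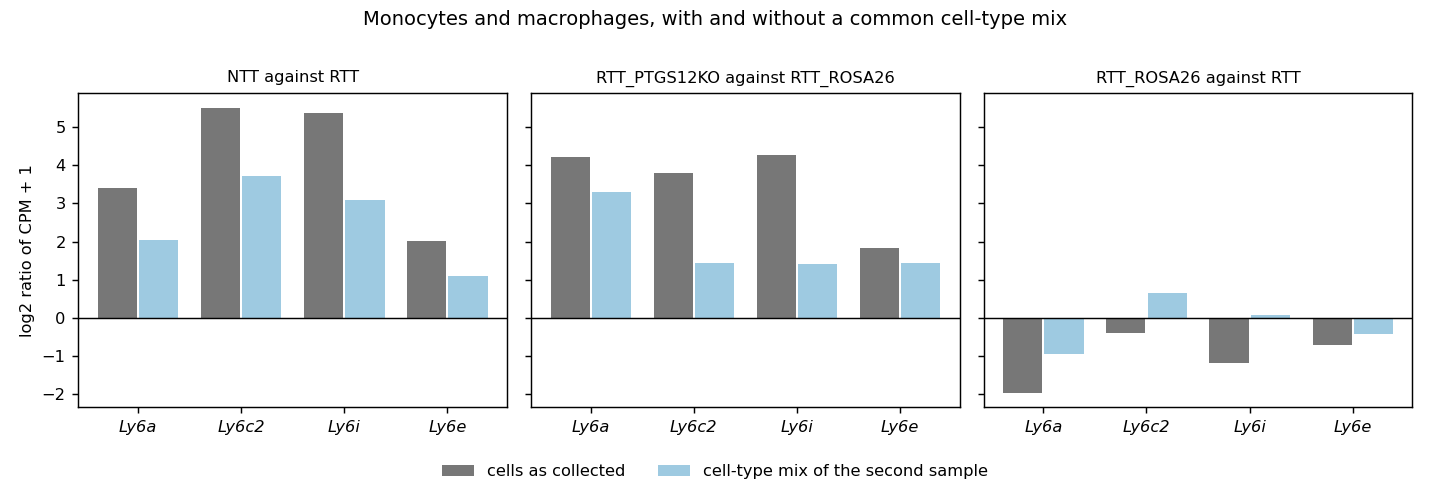
Log2 ratios of CPM + 1 in monocytes and macrophages for 4 members and 3 comparisons, with cells as collected and with the cell types of the first sample weighted as in the second. A common mix takes Ly6i from 4.26 to 1.42 in the knockout comparison and Ly6a from 4.20 to 3.29. Both are set against a control made up mostly of macrophages, whose levels were not told from background.

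The study's protein gate joins Ly6C and Ly6A, so UMIs of Ly6a and Ly6c2 were counted in the same cell after thinning each cell to 3000 UMIs. Of monocytes, 89.3% in NTT, against 44.7% in RTT, 42.03% for RTT_ROSA26 and 72.1% for RTT_PTGS12KO held both. The 95% exact binomial intervals were 88.5 to 90.01%, 40.4 to 49.2%, 33.7 to 50.7% and 70.6 to 73.5%. The intervals of RTT and RTT_ROSA26 overlapped and lay below the rest. The class is a different mix in RTT_ROSA26, where 86 of 144 monocytes were Infl_Mono, against 138 of 522 in RTT. Thinning left out 162, 10, 6 and 65 cells.

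Cells with 1 of the transcripts alone were counted by cluster and sample. In Monocyte_1 of RTT 52.9% of cells held Ly6a alone and 0.266% Ly6c2 alone. In Infl_Mono of RTT_ROSA26 6.02% held Ly6a alone and 28.9% Ly6c2 alone. In Infl_Mono of RTT the shares were 23.5% and 11.03%, and in Monocyte_1 of RTT_ROSA26 41.2% and 3.92%. Of these 4 groups, Ly6c2 alone was the commoner in Infl_Mono of RTT_ROSA26 only. In Infl_Mono of RTT_PTGS12KO Ly6c2 alone was the commoner too, at 15.7% against 6.24% with Ly6a alone. In that of NTT the shares were 6.24% and 6.05%. The share with both in Monocyte_1 of NTT was 89.97%, where the product of the single shares is 89.8%, and in Infl_Mono of RTT_ROSA26 it was 37.3% with a product of 28.7%. The interval of the latter share (27.0 to 48.7%) holds its product, and unthinned the values were 39.5% and 40.2%. In macrophages 36.9% in NTT, against 1.95% in RTT, 1.56% for RTT_ROSA26 and 9.22% for RTT_PTGS12KO held both, and unthinned 52.9%, 7.23%, 6.76% and 24.2%. In Myofibrobl, taken as background, 0.403% of RTT cells held both when thinned, but unthinned 6.83% (4.03 to 10.7%) in RTT and 3.39% (0.413 to 11.7%) in RTT_ROSA26. The macrophage shares of these samples lay within those intervals, which rest on 249 and 59 cells, so they were not told from background. CD8 T cells of NTT held both in 54.3% and neutrophils in 80.2%, 23.8%, 14.7% and 52.9% in the same order.

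Taken singly, a UMI of Ly6a was found in 97.8% in NTT, against 89.8% in RTT, 61.6% for RTT_ROSA26 and 95.9% for RTT_PTGS12KO among thinned monocytes (unthinned 98.7%, 93.5%, 66.7% and 97.9%). By cluster it was 94.1% in Monocyte_1 of RTT_ROSA26 and 97.6% in that of RTT, and 43.4% and 68.4% in Infl_Mono. Among macrophages it was found in 93.5%, 19.7%, 9.66% and 52.8% in the same order. Ly6i was found in 73.5%, 30.5%, 26.1% and 50.6% of monocytes and 17.6%, 1.54%, 1.43% and 3.97% of macrophages. Ly6e was found in 98.7%, 94.7%, 95.7% and 96.96% of monocytes. Nearly every monocyte thus held Ly6e in each tumour, whereas Ly6i was found in most monocytes only of NTT and RTT_PTGS12KO. In Myofibrobl of RTT, Ly6a was found in 4.84% of cells, Ly6c2 in 0.806% and Ly6i in 0.403%. Unthinned they were found in 30.9%, 16.1% and 7.23% there, against 39.03%, 14.8% and 5.14% in macrophages of RTT. The Ly6i share of these macrophages is thus read as background. Their Ly6c2 share was not told from background unthinned. Thinned it was 4.84% against 0.806%, and they held more Ly6c2 UMIs per cell (0.342 against 0.217). The median Monocyte_1 cell held 9, 8, 7 and 8 UMIs of Ly6a and 5, 0, 1 and 3 of Ly6c2 among 3000 in the same order.

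**Figure D4:**
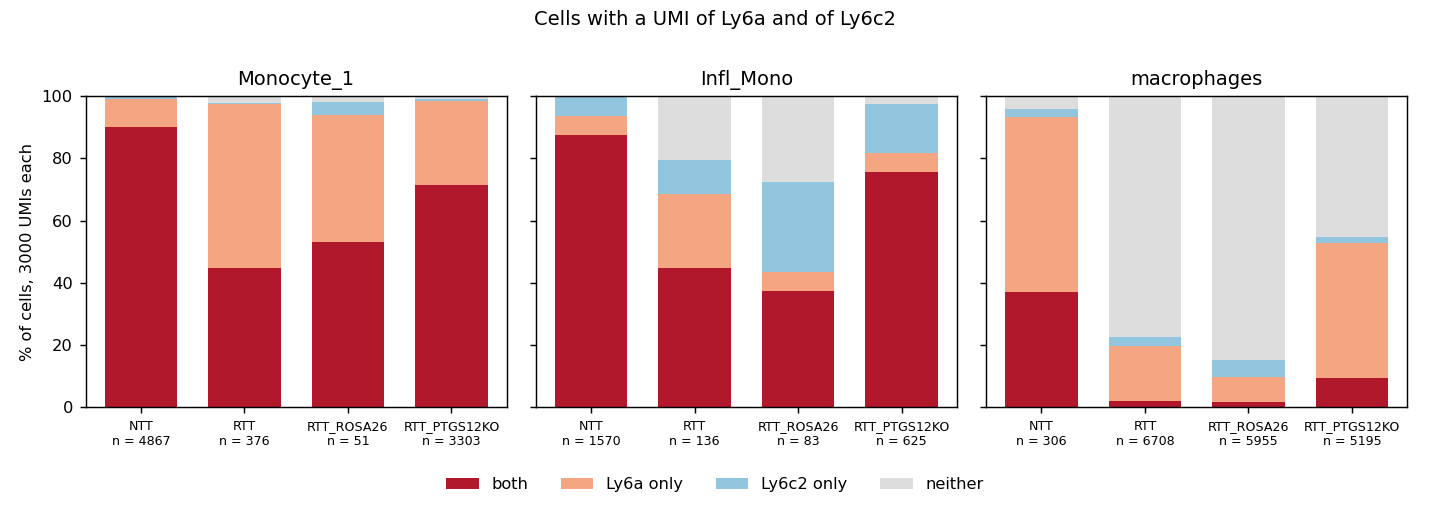
Percentage of cells with a UMI of both Ly6a and Ly6c2, of either alone or of neither, after thinning to 3000 UMIs, by sample and cell group; n is the number of cells. Ly6a alone takes 52.9% of Monocyte_1 in RTT, and Ly6c2 alone 28.9% of Infl_Mono in RTT_ROSA26.

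Ly6d was found in very few cells. It was detected in 34 of 33368 cells, and 451 of its 524 UMIs (86.1%) lay in 21 of the 1088 cells named cDC2, which held 4 to 61 UMIs each. By sample these were 10 of the 282 NTT cells, 1 of the 174 RTT cells, 6 of the 288 RTT_ROSA26 cells and 4 of the 344 RTT_PTGS12KO cells. The shares were 3.55%, 0.575%, 2.08% and 1.16%, and their exact binomial intervals overlapped. The cells carried markers of plasmacytoid DCs, the interferon-producing DCs: the lectin Siglech was 1275 CPM against 3.98 in cDC2 cells without Ly6d, the chemokine receptor Ccr9 1464 against 3.03, and the transcription factor Tcf4 1292 against 105. The class II gene H2-Ab1 was 1021 against 9617. Of the other cDC2 genes, Cd209a was 47.2 against 83.4, Itgax 88.5 against 220 and Sirpa 100 against 111. Clec10a went the other way, at 372 against 99.0. The label cDC2 thus leaves out the plasmacytoid DC genes of the cells with Ly6d, while cDC2 genes went both ways. Of the 25 cDC2 cells with both Siglech and Ccr9, 20 held Ly6d. The B-cell genes Cd79a and Ms4a1 were at 0 in the cells with Ly6d, and Cd79b was at 47.2 CPM.

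The same cells differed from other cDC2 in further members. Ly6c2 was 2721 CPM against 303, Ly6a 3110.2 against 2096 and Ly6e 1953 against 1385. Ly6i was 53.1 against 124; this rests on 9 UMIs in 5 cells, and over the 25 cells with both Siglech and Ccr9 it was 241 against 121. In other cell types 13 cells held Ly6d.

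**Figure D5:**
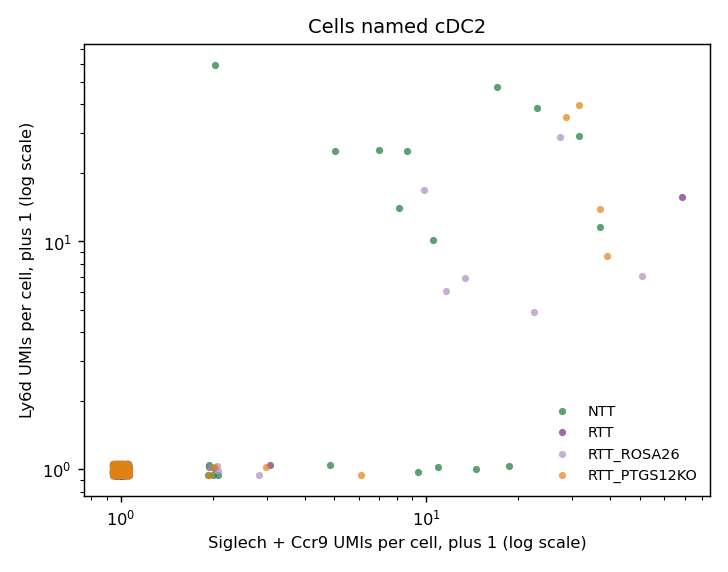
UMIs of Ly6d against summed UMIs of Siglech and Ccr9 in each of the 1088 cells named cDC2, both plus 1 on log axes, with points spread slightly at random; colours are samples. The 21 cells with Ly6d, at 4 to 61 UMIs, stand apart from the mass of cells at 0 on both axes.

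Ly6c1 was close to absent, in contrast to Ly6c2. Its 820 UMIs came from 497 cells (1.49%), and over all cells its level was 3.06 CPM in NTT, against 1.18 in RTT, 0.281 for RTT_ROSA26 and 2.99 for RTT_PTGS12KO. The 24 cells with at least 5 UMIs (8 from NTT, 4 from RTT, 0 from RTT_ROSA26 and 12 from RTT_PTGS12KO) held 32.4% of its UMIs. By deposited name they were 11 Monocyte_1, 4 Myofibrobl, 3 NK cells, 3 TAM_cycling, 2 Infl_Mono and 1 Ctsk_Macro. Summed, they held 1817 CPM of the collagen gene Col1a2, 445 of Ptprc and 1749 of Ly6c2, the fibroblast and Ptprc UMIs mostly from different cells. Of 1559 UMIs of 5 fibroblast genes (Col1a1, Col1a2, Col3a1, Pdgfra and the proteoglycan gene Dcn), 1556 lay in the 4 Myofibrobl cells, which held 1 of the 152 UMIs of Ptprc. The endothelial genes Cdh5, Kdr and Cldn5 were at 0 in the 24 cells, and Pecam1, which leukocytes also express, was 17.6 CPM against 14.5 in cells without Ly6c1.

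Across the 42 groups of a cell type in a sample with at least 50 cells, levels of the 4 abundant members were correlated to different extents. Pearson's r of log2(CPM + 1) was 0.92 for Ly6c2 with Ly6i (Spearman's rho 0.92), 0.89 for Ly6a with Ly6e (0.84), 0.82 for Ly6a with Ly6i (0.84), 0.76 for Ly6a with Ly6c2 (0.77) and 0.64 for Ly6c2 with Ly6e (0.61). The groups share samples, loads and depth, and the types were built on these genes, so the values are a description. Across thinned Monocyte_1 cells of 1 sample, Spearman's rho of Ly6c2 with Ly6i was 0.23, 0.42, 0.27 and 0.48 in the same order, and that of Ly6a with Ly6c2 0.24, 0.31, 0.13 and 0.30, weak values in sparse counts that are not read as a finding.

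Among 5122 genes that reached 50 CPM in a group, those most like Ly6a by r were Slco3a1 (0.96), H2-T23 (0.95), Slamf8 (0.93), Fgl2 (0.93) and Tap1 (0.93), where Tap1 carries peptides for antigen presentation. For Ly6c2 they included Plac8 (0.94), Ly6i (0.92), Oas3 (0.90) and Ifi213 (0.89), of which Oas3 is an interferon-induced antiviral enzyme. For Ly6i they were Ly6c2 (0.92), Ifi205 (0.91), Isg15 (0.90), Cd274 (0.90) and Irf7 (0.89), with Cd274 the gene of PD-L1, and for Ly6e Ly6a (0.89), Ifi203 (0.84), Sectm1a (0.83), Slco3a1 (0.83) and Slamf8 (0.83). For the rare Ly6d they were Vrk1 (0.72), Ctnnd2 (0.72), Plet1 (0.72), H2-Oa (0.71) and Cyb561a3 (0.70), and for Ly6c1 Upp1 (0.63), Selenom (0.61), Itga1 (0.60), Flt1 (0.58) and 1110038F14Rik (0.58).

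Interferon-response genes, a list of 24 of which 23 were in the matrix, were set beside the members. In monocytes and macrophages 22 of 23 were at least 2-fold higher in NTT than in RTT, beside 7.41% of 6833 genes. Their median log2 ratio was 2.94 against -0.10 over all genes. In the knockout comparison it was 22 of 23, beside 3.57% of 7034 genes, with a median of 2.93 against -0.13. In monocytes alone the knockout comparison had 0 higher and 5 lower of 23, with a median of -0.09, while Ly6i was at 1.56 and Ly6a at 1.07. Of 6405 genes 1.58% were higher, and the share that was lower was not counted, so the 5 are not weighed. By cluster the knockout comparison had 4 higher and 0 lower in Infl_Mono (median 0.57). In Monocyte_1 it had 1 higher and 1 lower (median -0.03), so the value of the class also holds the unlike mix of clusters. In NTT against RTT 3 of 23 passed in monocytes, beside 1.69% of 6499 genes, with a median of 0.47, while Ly6c2 was at 2.06. By cluster 8 of 23 passed in Monocyte_1 (median 0.57) and 4 of 23 in Infl_Mono (median 0.48). Shares of all genes within a cluster were not counted, so the cluster counts are not weighed. In macrophages the interferon median of the knockout comparison was 2.76, between Ly6a at 3.70 and Ly6e at 1.51.

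Of 35 further genes of the Ly6 and urokinase-receptor superfamily, 34 were in the matrix and 4 reached 10 CPM in a group of at least 50 cells. Plaur, the urokinase receptor, was 452 CPM in NTT, against 428 in RTT, 446 for RTT_ROSA26 and 369 for RTT_PTGS12KO in Monocyte_1, an even level beside that of Ly6c2. Ly6g, the neutrophil antigen of the same gene cluster, was 65.3 CPM in NTT, against 51.8 in RTT, 31.5 for RTT_ROSA26 and 24.3 for RTT_PTGS12KO in neutrophils. Cd59a, which blocks the complement attack complex, was 58.2 CPM in RTT, against 58.7 for RTT_ROSA26 and 54.5 for RTT_PTGS12KO in Ctsk_Macro, where the samples differed far more in Ly6a and Ly6e. Ly6k reached 17.2 CPM in Macro of RTT_ROSA26. The remaining 30 genes stayed below 10 CPM.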

How the data were processed

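Immune cells of 4 mouse melanoma samples were profiled with a 3′ single-cell kit after labelling with multiplexing oligos. Per the labels, the submitters' processing notes name Cell Ranger, Seurat 4.3.0 and the mm10 build. The authors deposited raw UMI counts per gene and cell (33368 cells, 32285 genes) together with every cell's sample and cell type, and their methods ask for more than 1000 genes and less than 15% mitochondrial or 40% ribosomal UMIs.

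Here counts were summed per sample and cell type and divided by the summed total (CPM). A gene was past 2-fold where the log2 ratio of CPM + 1 reached 1 at a mean of at least 10 CPM. No test was run, because a group is 1 sample. The 95% intervals are exact Poisson for levels, combined from these for ratios, and Clopper-Pearson for shares. Shares used cells thinned to 3000 UMIs (404 cells had fewer). No doublet caller was run. The members, gene lists and rules were chosen with earlier results of these data known; named were the members, the 5 genes most alike to each, and family genes at 10 CPM or more. Ratios were tested on simulated data. Python 3.11.15, numpy 2.4.6, scipy 1.17.1, R 4.3.3 and edgeR 4.0.16 (TMM factors) were used. Promoters of Ly6a, Ly6i, Ly6e and Ly6d were not analysed here, and 1 of the genes most alike to Ly6c2 is not reported here.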

Additional observations from a re-analysis of the deposited data

Results flagged for a closer look

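Groups of 1 sample give no comparison within a group. In 3 cases the ratio of a member between the same samples pointed up in one cell type and down in another, counting types with a mean of at least 10 CPM and a 95% counting interval clear of 0, and the difference between types was not tested. Ly6c2 in RTT_PTGS12KO against RTT_ROSA26 had a log2 ratio of 3.03 in cDC2 and -0.16 in TAM_Spp1, where the loads of the samples overlapped (62.4 to 82.9 and 65.1 to 100.1 CPM). Ly6e in that comparison was at 3.21 in Ctsk_Macro and -0.32 in Macro. Ly6c2 in RTT_ROSA26 against RTT was at 1.05 in TAM_Spp1 and -2.16 in Macro. The level of RTT in Macro rests on 1 load, with 46.6, 25.97 and 391 CPM over loads 1 to 3, against 25.5, 49.97 and 14.5 in RTT_ROSA26. The Ly6c2 levels of RTT_ROSA26 in Macro and cDC2 lay at background.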

How the results depend on the processing

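No paired analysis was possible because groups hold only 1 sample. The count of members past 2-fold was 4 when RTT_PTGS12KO was set against RTT_ROSA26 and also when NTT was set against RTT, and over 11 alternatives it was 4 to 5 in each (5 with no minimum CPM). The alternatives were a pseudocount of 10 CPM, no minimum CPM, TMM factors, a stricter cell filter, a mean over cells, all cells, common cell-type weights, each of 3 loads left out and, chosen after seeing the data, leaving out the 5% of cells with the most UMIs. For RTT_ROSA26 against RTT the count of 2 became 1 with a pseudocount of 10 CPM, 0 with common weights, and 1 to 2 with a load left out (1 without load 2). Common weights, which by construction give both samples 1 mix of types, also turned the log2 ratio of Ly6i there from -1.17 to 0.074. The other causes were not tested. The share of monocytes with both Ly6a and Ly6c2 was 94.7% in NTT, 58.6% in RTT and 83.9% in RTT_PTGS12KO without thinning, and RTT_ROSA26 then had 48.6%. Thinned to 5000 UMIs it was 94.3%, 50.7% and 77.4%, and 51.1% in RTT_ROSA26. The number of cells limits RTT_ROSA26 most among monocytes (144 cells) and NTT among macrophages (308 cells). With 1 sample per group, a line and its tumour cannot be told apart.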
